A study of Caenorhabditis elegans with 12 samples.

Results

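The genes described here are the core enzymes of small RNA silencing in the nematode Caenorhabditis elegans. They are 3 RNA-directed RNA polymerases (rrf-1, ego-1 and rrf-3), Dicer (dcr-1) and 6 Argonautes (rde-1, ergo-1, csr-1, hrde-1, alg-1 and alg-2). They were taken by gene identifier and are 10 of the 46589 genes in the count files. All 10 passed the filter on low counts that left 15245 genes for testing.

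In RNA interference Dicer cuts double-stranded RNA into short RNAs, and an Argonaute loaded with one of them finds transcripts of matching sequence. In worms RNA-directed RNA polymerases then copy those transcripts into secondary short RNAs, which a further set of Argonautes carries, many of them in the germline. The microRNA pathway also uses Dicer, but loads its products on Argonautes of its own and needs no polymerase of this kind.

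The RNA of whole worms at day 1 of adulthood was sequenced, with about 5000 worms for each library. Wild-type (N2) worms and the ung-1 mutant were grown at 22 °C. A further wild type and the nth-1 mutant were grown at 20 °C. UNG-1 and NTH-1 are DNA glycosylases, enzymes that remove damaged or wrong bases from DNA. On each of these 4 backgrounds worms without tau, worms with tau that aggregates (strain BR5270 or its cross to the mutant) and worms with anti-aggregate tau (strain BR5271 or its cross) gave 1 library each, 12 in all. The 2 tau strains are known as lines that make a human tau fragment in neurons, the one prone to aggregate and the other changed so that it does not.

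Each combination of background and tau state had 1 library. A p-value here rests on how far the backgrounds differ in their response to tau, together with the noise of single libraries, and not on repeat cultures. Temperature, the set of libraries and the mutated gene changed together between ung-1 and nth-1, so their parts cannot be told apart. The titles of the 3 nth-1 libraries name UNG-1, and their genotype label was used. Library totals ran from 15124127 to 35204808 counts, and ribosomal RNA took 0.0824% to 1.0336% of them. The ung-1 gene read 11.9 to 14.5 CPM (read counts scaled to a common library total, with TMM factors between libraries) in the ung-1 libraries and 39.9 to 46.6 CPM in their wild-type partners. In the nth-1 libraries ung-1 read 27.0 CPM without tau, 28.0 CPM with aggregate tau and 49.6 CPM with anti-aggregate tau. The wild types of 20 °C read 62.1, 37.7 and 62.3 CPM for ung-1 in the same order. The nth-1 gene read 5.06 and 5.08 CPM in nth-1 without tau and with aggregate tau, against 23.0 to 26.8 CPM in the wild types of 20 °C. The library labelled as anti-aggregate tau on nth-1 read 11.3 CPM, between those ranges. Counts of calls that move when it is left out are given both ways, as are the fits of nth-1 loss, the ranges of correlation and the list counts that moved most. As whole worms were used, fewer cells of a type and less RNA per cell cannot be told apart.

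Per kilobase of exon, the germline Argonautes hrde-1 and csr-1 stood highest, with medians over the 12 libraries of 169 and 146 CPM per kb. The primary Argonaute ergo-1 followed with 84.0 CPM per kb. Next came rde-1 (36.7 CPM per kb), ego-1 (31.4 CPM per kb), dcr-1 (30.5 CPM per kb), rrf-3 (18.9 CPM per kb), rrf-1 (13.9 CPM per kb) and alg-2 (12.6 CPM per kb). The microRNA Argonaute alg-1 was lowest, at 6.32 CPM per kb. In all 12 libraries csr-1 read above ergo-1, ergo-1 above rde-1, dcr-1 above rrf-3, rrf-3 above rrf-1 and alg-2 above alg-1. The neighbours hrde-1 and csr-1 (hrde-1 higher in 8 of 12 libraries), rde-1 and ego-1 (9 of 12), ego-1 and dcr-1 (6 of 12), and rrf-1 and alg-2 (8 of 12) changed places between libraries. The highest library of a gene was 1.59 times (dcr-1) to 2.63 times (alg-1) its lowest.

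In the values that follow, the libraries of each tau state are in the order wild type of 22 °C, ung-1, wild type of 20 °C and nth-1, and levels are TMM-normalised CPM. The plot of levels by library shows all of them.

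**Figure D1:**
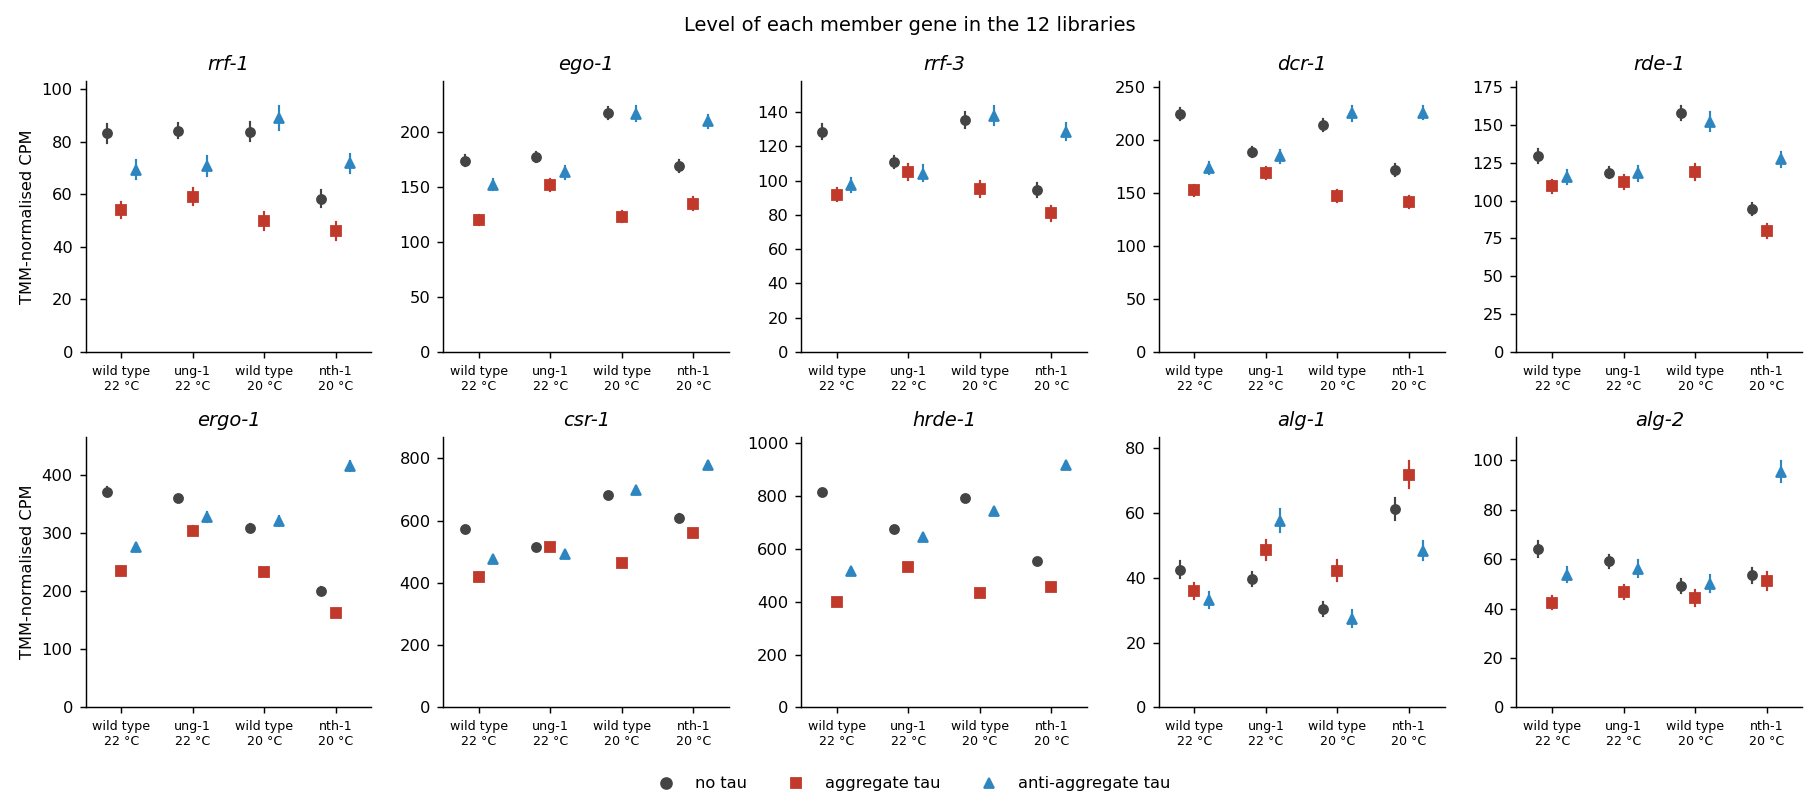
Level of each of the 10 genes in the 12 libraries, in TMM-normalised CPM from 0, by background and temperature. Each point is 1 library, circles for no tau, squares for aggregate tau and triangles for anti-aggregate tau, with bars for the 95% interval of counting error. The squares lie under the circles on every background for each gene but alg-1, whose aggregate library is lower than its no-tau partner on the wild type of 22 °C alone. The square and circle of csr-1 on ung-1 touch, at 515.7 and 515.9 CPM.

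The gene rrf-1 (F26A3.8; chromosome I, 7643431 to 7649777, minus strand, build WBcel235) encodes a polymerase that makes secondary short RNAs, chiefly in somatic cells. It read 83.3, 84.3, 83.8 and 58.4 CPM without tau, 53.9, 59.2, 49.7 and 45.9 CPM with aggregate tau, and 69.4, 70.7, 89.1 and 71.8 CPM with anti-aggregate tau. The no-tau library of nth-1 was low, close to the aggregate libraries, so that the no-tau and aggregate libraries overlapped. The aggregate and anti-aggregate libraries did not overlap. Its neighbour ego-1 (F26A3.3; I, 7650341 to 7656338, minus strand) encodes the polymerase that germline development requires, and 563 bases lie between the spans of the 2 genes. It read 174, 177, 217 and 169 CPM without tau, 119.8, 151, 123 and 135 CPM with aggregate tau, and 152, 163, 217 and 209.7 CPM with anti-aggregate tau. All 4 aggregate libraries were below every library of the other states. The closest were ung-1 with aggregate tau (151.4 CPM) and the wild type of 22 °C with anti-aggregate tau (152 CPM). Their 95% intervals of counting error overlapped, at 146.1 to 156.8 and 146.8 to 157.3 CPM. Per kilobase rrf-1 was between 0.359 and 0.504 of ego-1, lowest in the 3 nth-1 libraries (0.359 to 0.364).

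The third polymerase gene, rrf-3 (F10B5.7; II, 8162465 to 8168651, plus strand), works with Dicer to make short RNAs against endogenous transcripts, and its loss makes worms more sensitive to RNA interference. It read 129, 111, 135 and 94.5 CPM without tau, 91.7, 105, 94.9 and 80.9 CPM with aggregate tau, and 97.3, 104, 138 and 129 CPM with anti-aggregate tau. Each aggregate library was below its no-tau partner, and nth-1 without tau lay among the aggregate libraries. Dicer itself, dcr-1 (K12H4.8; III, 8071967 to 8080281, minus strand), cuts both double-stranded RNA and microRNA precursors. It read 225, 189, 214 and 172 CPM without tau, 153, 169, 148 and 142 CPM with aggregate tau, and 174, 185, 225 and 226 CPM with anti-aggregate tau. Again the 4 aggregate libraries were below every other library. The 95% interval of counting error of ung-1 with aggregate tau was 163.1 to 174.4 CPM. It overlapped those of nth-1 without tau (166.6 to 177.55 CPM) and the wild type of 22 °C with anti-aggregate tau (168.4 to 179.6 CPM).

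Of the primary Argonautes, rde-1 (K08H10.7; V, 9987916 to 9991642, minus strand) takes the short RNAs of exogenous RNA interference. It read 129, 118, 158 and 94.4 CPM without tau, 109.6, 112, 118.7 and 79.8 CPM with aggregate tau, and 116, 118, 152 and 127 CPM with anti-aggregate tau. The wild type of 20 °C without tau and with anti-aggregate tau gave the highest libraries, and nth-1 without tau and with aggregate tau the lowest of the 12. The Argonaute ergo-1 (R09A1.1; V, 1008803 to 1018352, plus strand) takes the endogenous primary short RNAs of oocytes and embryos. It read 372, 360.5, 309 and 201 CPM without tau, 234.9, 305, 233 and 163 CPM with aggregate tau, and 276, 328, 321 and 416 CPM with anti-aggregate tau. Both the lowest and the highest library came from the nth-1 background, the highest being the library labelled as anti-aggregate tau on nth-1. Its span shares 17 bases with pei-2 on the opposite strand (55 to 750 counts), and whether the counting used strand is not known here.

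Of the Argonautes that carry secondary short RNAs, csr-1 (F20D12.1; IV, 7957267 to 7962157, plus strand) binds those against transcripts the germline expresses and is essential for fertility. It read 572, 516, 683 and 609 CPM without tau, 419, 516, 465 and 559 CPM with aggregate tau, and 475, 493, 698 and 779 CPM with anti-aggregate tau. The aggregate libraries were low on the wild-type backgrounds, while ung-1 read the same with and without aggregate tau. The annotated gene frpr-10 shares 4354 bases of its span and its strand, and read 0 to 19 counts. The nuclear Argonaute hrde-1 (C16C10.3; III, 4172337 to 4176159, minus strand) carries silencing through the germline from parents to offspring. It read 815, 676, 793 and 555 CPM without tau, 397, 529.5, 433 and 456 CPM with aggregate tau, and 517, 643, 741 and 918 CPM with anti-aggregate tau. All aggregate libraries were below all no-tau libraries, and that of ung-1 was above the anti-aggregate library of the wild type of 22 °C.

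The last 2 members load microRNAs. The gene alg-1 (F48F7.1; X, 13949110 to 13956261, plus strand) and its close relative alg-2 (T07D3.7; II, 873212 to 879885, plus strand) share much of their function and are similar in sequence, so reads of one could be counted for the other. For alg-1 the levels were 42.5, 39.6, 30.4 and 61.2 CPM without tau, 36.0, 48.6, 42.2 and 71.8 CPM with aggregate tau, and 33.0, 57.7, 27.3 and 48.5 CPM with anti-aggregate tau. The nth-1 libraries were high and those of the wild types low. For alg-2 they were 64.1, 59.0, 49.0 and 53.4 CPM without tau, 42.4, 46.6, 44.2 and 51.0 CPM with aggregate tau, and 53.7, 56.1, 49.9 and 95.4 CPM with anti-aggregate tau. The library labelled as anti-aggregate tau on nth-1 stood apart at the top, and the other 11 lay between 42.4 and 64.1 CPM.

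Aggregate tau was first compared with no tau over all 4 backgrounds, which asked what the aggregating tau goes with whatever the background. Of the 10 genes 9 were lower with aggregate tau in each of the 4 matched pairs, and alg-1 was higher in 3 of 4. Some of these pairs lay within counting error. For csr-1 on ung-1 (515.7 against 515.9 CPM) the 95% interval of the log2 ratio was -0.03 to 0.03. For alg-2 on nth-1 (ratio -0.07) it was -0.19 to 0.06. Among the 8892 genes whose mean was 5 CPM or more, 25.7% were lower in every pair. The log2 fold changes were -0.65 (SE 0.20) for hrde-1, -0.56 (SE 0.14) for rrf-1, -0.47 (SE 0.14) for ego-1, -0.41 (SE 0.22) for ergo-1 and -0.39 (SE 0.14) for dcr-1. Those of rrf-3, alg-2, csr-1 and rde-1 ran from -0.33 to -0.24, and that of alg-1 was 0.19 (SE 0.19).

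None of the 10 genes passed the edgeR quasi-likelihood test with Benjamini-Hochberg adjustment over all tested genes (adjusted p between 0.363 and 0.522), and 0.0% of all tested genes did. At an unadjusted p under 0.05 stood 4 of them (rrf-1, ego-1, hrde-1 and dcr-1), all lower, where 5.65% of tested genes were lower at that level. In the fit filtered at a mean of 5 CPM, 1448 of 8912 genes stood at that level in either direction, against 1874 of 15245 in the main fit. DESeq2 and limma voom called 0 of the 10 as well. The aggregate and no-tau libraries of 3 genes (ego-1, dcr-1 and hrde-1) did not overlap, against 3.36% of genes of at least 5 CPM that were lower in that way. For dcr-1 the closest were 168.7 CPM (ung-1 with aggregate tau) and 172 CPM (nth-1 without tau), with overlapping 95% intervals of counting error. The median of the 10 was -0.36, beside 0.26 over all tested genes and -0.13 over those of at least 5 CPM.

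The lower values were not of one size in the 4 pairs, as the plot of aggregate over no tau shows. For hrde-1 the log2 ratio was -1.04 and -0.87 on the wild types (22 °C first), and -0.35 and -0.28 on ung-1 and nth-1. For ego-1 it was -0.54 and -0.82 on the wild types, and -0.23 and -0.33 on the mutants. For csr-1 it was -0.45 and -0.55 on the wild types and -0.00 and -0.13 on the mutants. The polymerase rrf-1 had the narrowest range of these 4, from -0.75 to -0.35. For alg-1 the sign differed between the wild types, at -0.24 and 0.48, and was positive on ung-1 (0.29) and nth-1 (0.23).

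**Figure D2:**
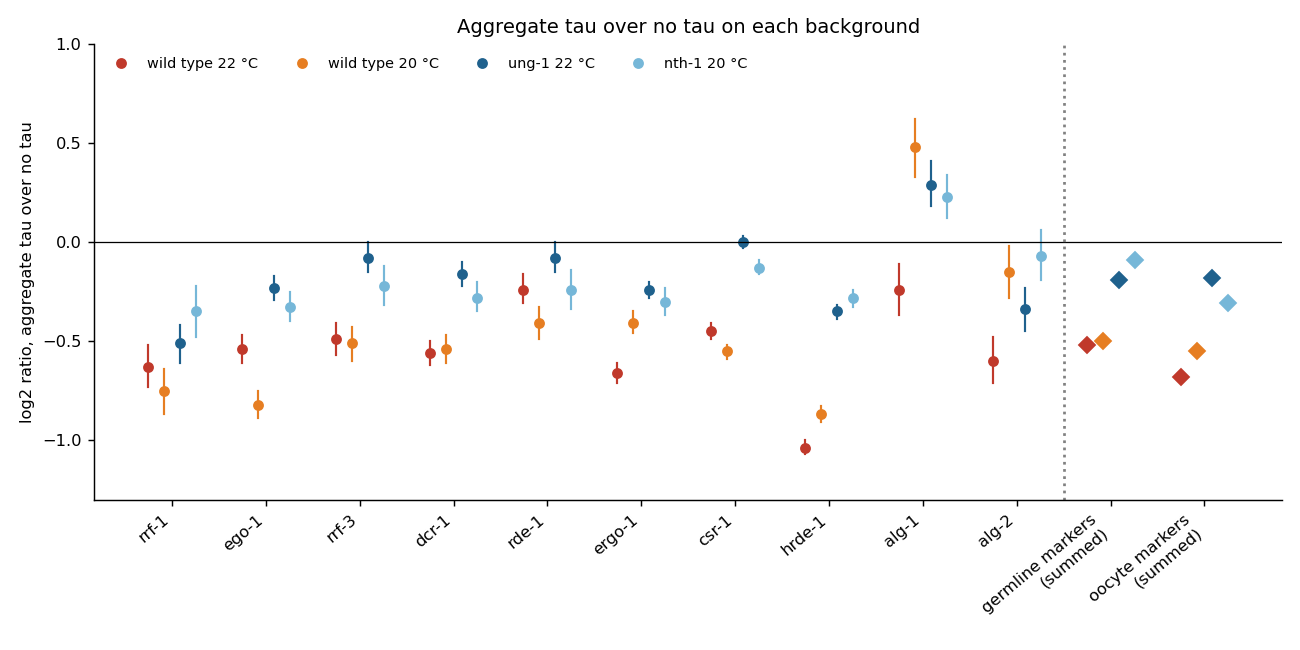
Log2 ratio of aggregate over no tau for each gene on each of the 4 backgrounds, 1 point per pair of libraries with bars for the 95% interval of counting error. At the right, past the dotted line, stand the summed germline and oocyte markers. The wild-type pairs (red and orange) lie lower than the mutant pairs (blue) for 7 of the genes, from -1.04 for hrde-1 on the wild type of 22 °C, and alg-1 lies above 0 in 3 of 4 pairs.

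Markers of the germline moved in the same direction. The summed level of 17 germline markers was 4640 to 5387 CPM without tau, 3650 to 4350.4 CPM with aggregate tau and 4440 to 6601 CPM with anti-aggregate tau, and none of the 17 was at 0. Aggregate over no tau, that sum had log2 ratios of -0.52 and -0.50 on the wild types (22 °C first), -0.19 on ung-1 and -0.09 on nth-1. Taken over the germline sum of the same libraries, dcr-1 kept -0.04 in both wild-type pairs, and rrf-3 had 0.03 and -0.01. In the same pairs hrde-1 kept -0.52 and -0.37, rrf-1 had -0.11 and -0.25, and ego-1 had -0.02 and -0.32. For alg-1 the ratio over the germline sum was 0.28 and 0.98. The other genes had 0.28 and 0.09 (rde-1), -0.14 and 0.09 (ergo-1), 0.07 and -0.05 (csr-1), and -0.08 and 0.35 (alg-2). In the mutant pairs the values ran from -0.32 (rrf-1) to 0.49 (alg-1) on ung-1. On nth-1 they ran from -0.25 (rrf-1) to 0.32 (alg-1). The part of the germline markers in the levels of the 10 genes was not tested.

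On the wild-type backgrounds alone, aggregate tau was compared with no tau in 2 libraries against 2, with a spread taken from all 12. Here hrde-1 had the lowest log2 fold change, -0.96 (SE 0.24; fold 0.514), from means of 804 CPM (SD 15.8, n = 2) without tau and 415 CPM (SD 25.1, n = 2) with it. It did not pass (edgeR quasi-likelihood adjusted p = 0.0978). The 2 libraries behind each mean differ in temperature, so the SDs are not a spread of repeat cultures. The polymerases rrf-1 (-0.69, SE 0.19, adjusted p = 0.110) and ego-1 (-0.67, SE 0.18, adjusted p = 0.106) followed. Then came dcr-1 (-0.55), ergo-1 (-0.54), csr-1 and rrf-3 (-0.50 each), alg-2 (-0.37) and rde-1 (-0.32), while alg-1 had 0.12 (SE 0.28).

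By edgeR 0 of the 10 genes passed, where 1.51% of tested genes did. At an unadjusted p under 0.05 stood 6 of the 10, all lower (rrf-1, ego-1, rrf-3, dcr-1, csr-1 and hrde-1), against 15.1% of tested genes that were lower. In the fit filtered at a mean of 5 CPM, 3501 of 8912 genes stood at that level in either direction, against 5104 of 15245 in the main fit. The libraries of 9 genes did not overlap and were lower with aggregate tau, a pattern that 49.5% of genes of at least 5 CPM showed. For alg-2 the closest were 44.2 CPM with and 49.0 CPM without aggregate tau at 20 °C, with overlapping 95% intervals of counting error. The median of the 10 was -0.52, beside 0.46 over all tested genes and -0.24 over those of at least 5 CPM. DESeq2 called 5 of them lower (csr-1, dcr-1, ego-1, hrde-1 and rrf-1), with 10.4% of tested genes called lower, and limma voom called 1 (hrde-1), with 0.269% called lower.

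The count depended on single libraries that are in neither arm. Without ung-1 with anti-aggregate tau 8 of the 10 passed by edgeR, all lower, with 18.1% of tested genes called lower. Without the library labelled as anti-aggregate tau on nth-1 the same 8 passed, with 18% of tested genes called lower. The fit holds a single term for anti-aggregate tau on both mutants. Leaving out either of these libraries therefore leaves the other fitted exactly, so these counts are not separate results. The genes left out of both counts were alg-1 and alg-2. Without all 3 nth-1 libraries 3 passed (ego-1, hrde-1 and rrf-1), all lower, with 10.5% of tested genes called lower. All 17 germline and 11 oocyte markers had negative values in this comparison, with medians of -0.53 and -0.73 and none past the threshold. In the wild-type pairs the summed sperm markers had log2 ratios of 2.05 (22 °C) and 1.48 (20 °C), and the summed hypodermis markers 2.49 and 1.73. The sperm sums without tau were only 30.1 and 48.6 CPM, with 4 and 2 of the 10 markers at 0. Of the 8 hypodermis markers 2 and 1 were at 0 there. The summed neuron markers had ratios of 0.28 and 0.43. The intestine sums fell from 82238 to 44471 CPM at 22 °C and rose from 32269 to 44494 CPM at 20 °C. The 8 muscle markers summed to 2208 and 2656 CPM with aggregate tau on the wild types, against 886 and 829.6 CPM without tau (22 °C first). Their part in these values was not tested.

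Whether the aggregate effect differed with glycosylase loss was tested as an interaction. All 10 genes had positive values, meaning a less negative or more positive aggregate effect on the mutant backgrounds, with a median of 0.30 beside -0.33 over all tested genes and 0.21 over those of at least 5 CPM. With total counts as the scaling 4 of the 10 were negative and their median was 0.04. The largest value was 0.64 (SE 0.33, edgeR quasi-likelihood adjusted p = 0.434) for hrde-1, followed by csr-1 (0.44, SE 0.26) and ego-1 (0.40, SE 0.25). None of the 10 passed (adjusted p between 0.434 and 0.848), none had an unadjusted p under 0.05, and DESeq2 and limma voom called 0. Of all tested genes 0.0131% passed. Total-count scaling moved the median of all genes from -0.33 to -0.59 here and from 0.46 to 0.67 for aggregate tau on wild type, where 9 of the 10 genes stayed negative.

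Within aggregate tau, the mutants were compared with the wild types in 2 pairs, which asked what glycosylase loss goes with in the tau worms. The largest value was that of alg-1, 0.59 (SE 0.28), with 48.6 CPM on ung-1 against 36.0 CPM at 22 °C and 71.8 CPM on nth-1 against 42.2 CPM at 20 °C. The lowest was that of rde-1, -0.27 (SE 0.17), which came from the nth-1 pair (-0.57) and not from the ung-1 pair (0.03). Similarly ergo-1 had a ratio of 0.38 in the ung-1 pair and -0.51 in the nth-1 pair. In the edgeR test 0 of 10 passed (adjusted p between 0.561 and 1), 0 had an unadjusted p under 0.05, and 0.984% of tested genes passed. DESeq2 and limma voom called 0. In 5 genes (ego-1, csr-1, hrde-1, alg-1 and alg-2) the mutant libraries were above the wild types without overlap, as in 23.0% of genes of at least 5 CPM. For alg-2 the closest were 46.6 CPM (ung-1) and 44.2 CPM (wild type of 20 °C), with overlapping 95% intervals of counting error. With total-count scaling 7 of the 10 had negative values, against 3 with TMM, so no direction is given for the set.

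Aggregate tau against anti-aggregate tau, which sets the tau that aggregates beside the one that does not and uses the same 4 aggregate libraries as above, gave lower values for 9 genes and a higher one for alg-1 (0.26, SE 0.20). The values of hrde-1 (-0.63, SE 0.20), ergo-1 (-0.57, SE 0.23), rrf-1 (-0.53, SE 0.14), ego-1 (-0.48, SE 0.14) and alg-2 (-0.44, SE 0.18) were the lowest. By edgeR 0 of the 10 passed (adjusted p between 0.137 and 0.32), and 0.0% of all tested genes did. At an unadjusted p under 0.05 there were 7, all lower, against 16.5% of tested genes that were lower. In the fit filtered at a mean of 5 CPM, 3010 of 8912 genes stood at that level in either direction, against 5047 of 15245 in the main fit. DESeq2 called 3 lower (ego-1, hrde-1 and rrf-1), with 2.8% of tested genes called lower, and limma voom 0. Without the library labelled as anti-aggregate tau on nth-1, 2085 of 15222 tested genes had an unadjusted edgeR p under 0.05, in either direction. When each library was left out in turn, the value nearest 0 was -0.25 for ergo-1 and -0.22 for alg-2.

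In that comparison 7 genes were lower in each of the 4 pairs, against 26% of genes of at least 5 CPM. One of them, rde-1, had a 95% interval of counting error that included 0 in the ung-1 pair (-0.16 to 0.01). The exceptions beside alg-1 were csr-1 and rrf-3, which read 0.07 and 0.01 in the ung-1 pair. The libraries of 3 genes (rrf-1, ego-1 and dcr-1) did not overlap, against 9.81%. For ego-1 and dcr-1 the closest libraries had overlapping 95% intervals of counting error. The median was -0.42, beside 0.35 over all tested genes and -0.18 over those of at least 5 CPM. The nth-1 pair gave the lowest ratio for 6 of the 10 genes, -1.35 for ergo-1 and -1.01 for hrde-1 among them, and rests on the library labelled as anti-aggregate tau on nth-1. Without all 3 nth-1 libraries the median was -0.26, with 9 genes still negative and 0 passing.

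Between anti-aggregate tau and no tau the log2 fold changes of the 10 genes ran from -0.07 for alg-1 to 0.15 (SE 0.23) for ergo-1, with a median of 0.01, beside 0.06 over genes of at least 5 CPM. The comparison uses the no-tau libraries and the anti-aggregate libraries of the comparisons above, so its values are not independent of them. By edgeR 0 of the 10 passed (adjusted p between 0.997 and 1), none had an unadjusted p under 0.05, and DESeq2 and limma voom called 0. Of all tested genes 0.0% passed. These averages covered backgrounds that went different ways. On the wild type of 22 °C all 10 genes were lower with anti-aggregate tau, by ratios from -0.66 for hrde-1 to -0.16 for rde-1. In the ung-1 pair 9 genes lay between -0.25 and -0.00, and alg-1 had 0.54. On the wild type of 20 °C all 10 lay between -0.15 and 0.09. In the library labelled as anti-aggregate tau on nth-1 9 were higher than in nth-1 without tau, with 1.05 for ergo-1, 0.84 for alg-2 and 0.73 for hrde-1, and alg-1 was lower (-0.34). Without all 3 nth-1 libraries 9 of the 10 fitted values were negative, with a median of -0.10, and with total-count scaling 7 were.

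Loss of nth-1 was compared with wild type at 20 °C in 3 pairs matched by tau state. Here alg-1 was higher, with a log2 fold change of 0.87 (SE 0.23; fold 1.82) from means of 33.3 CPM (SD 7.87, n = 3) in wild type and 60.5 CPM (SD 11.7, n = 3) in nth-1. The ratio was 1.01 without tau, 0.77 with aggregate and 0.83 with anti-aggregate tau. The 3 libraries behind each mean differ in tau state, so the SDs are not a spread of repeat cultures. The other microRNA Argonaute, alg-2, had 0.45 (SE 0.21), most of it from the anti-aggregate pair (0.93, against 0.12 and 0.21). Lowest was the primary Argonaute rde-1 at -0.51 (SE 0.15), with ratios of -0.74, -0.57 and -0.26 without tau, with aggregate and with anti-aggregate tau. The polymerases rrf-1 (-0.32, SE 0.16) and rrf-3 (-0.27, SE 0.17) were lower in all pairs too. The values of ergo-1, dcr-1, ego-1, hrde-1 and csr-1 ran from -0.20 to 0.09.

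By edgeR 0 of the 10 passed, with an adjusted p of 0.0692 for alg-1 and 0.0731 for rde-1, and 0.0% of all tested genes passed. These were also the 2 with an unadjusted p under 0.05, against 36.6% of tested genes. DESeq2 called alg-1 and rde-1, with 27.6% of tested genes called, and limma voom called alg-1, with 9.09%. In every pair 2 genes were higher (alg-1 and alg-2) and 3 lower (rde-1, rrf-1 and rrf-3), against 27.8% and 36.8% of genes of at least 5 CPM. The nth-1 libraries of alg-1 and of alg-2 were above the wild types without overlap, against 6.88%. For alg-2 the closest were 51.0 CPM (nth-1 with aggregate tau) and 49.9 CPM (wild type with anti-aggregate tau). Their 95% intervals of counting error overlapped, at 47.6 to 54.6 and 46.6 to 53.4 CPM. The median of the 10 was -0.11, beside 0.17 over all tested genes and -0.10 over those of at least 5 CPM.

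Without the library labelled as anti-aggregate tau on nth-1 3 of the 10 passed (alg-1, rde-1 and ergo-1), with 34.9% of all tested genes called. In that fit alg-1 had a log2 fold change of 0.98 (edgeR quasi-likelihood adjusted p = 0.0209), rde-1 -0.70 (adjusted p = 0.0101) and ergo-1 -0.64 (adjusted p = 0.0177). The value of alg-2 was then 0.16 and did not pass (adjusted p = 0.446), those of rrf-3 and rrf-1 were -0.47 and -0.42, and the median of the 10 was -0.29. Without ung-1 with aggregate tau alg-1 passed, with 10.1% of tested genes called. Marker levels set apart nth-1 without tau and nth-1 with aggregate tau. The summed oocyte markers of nth-1 over wild type had log2 ratios of -0.86 without tau, -0.62 with aggregate tau and 0.19 with anti-aggregate tau. The summed sperm markers read 356 and 407 CPM in nth-1 without tau and with aggregate tau and 30.1 to 136 CPM in the other 10 libraries. The 8 muscle markers summed to 7070 and 7197 CPM in those 2 libraries and to 493 to 2656 CPM in the other 10. For the 8 hypodermis markers the sums were 2334 and 2482 CPM against 321 to 1799 CPM. Over the germline sum alg-1 kept 1.17, 0.51 and 0.51, and rde-1 -0.59, -0.83 and -0.58, in the order no tau, aggregate and anti-aggregate tau. The part of these markers was not tested.

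**Figure D3:**
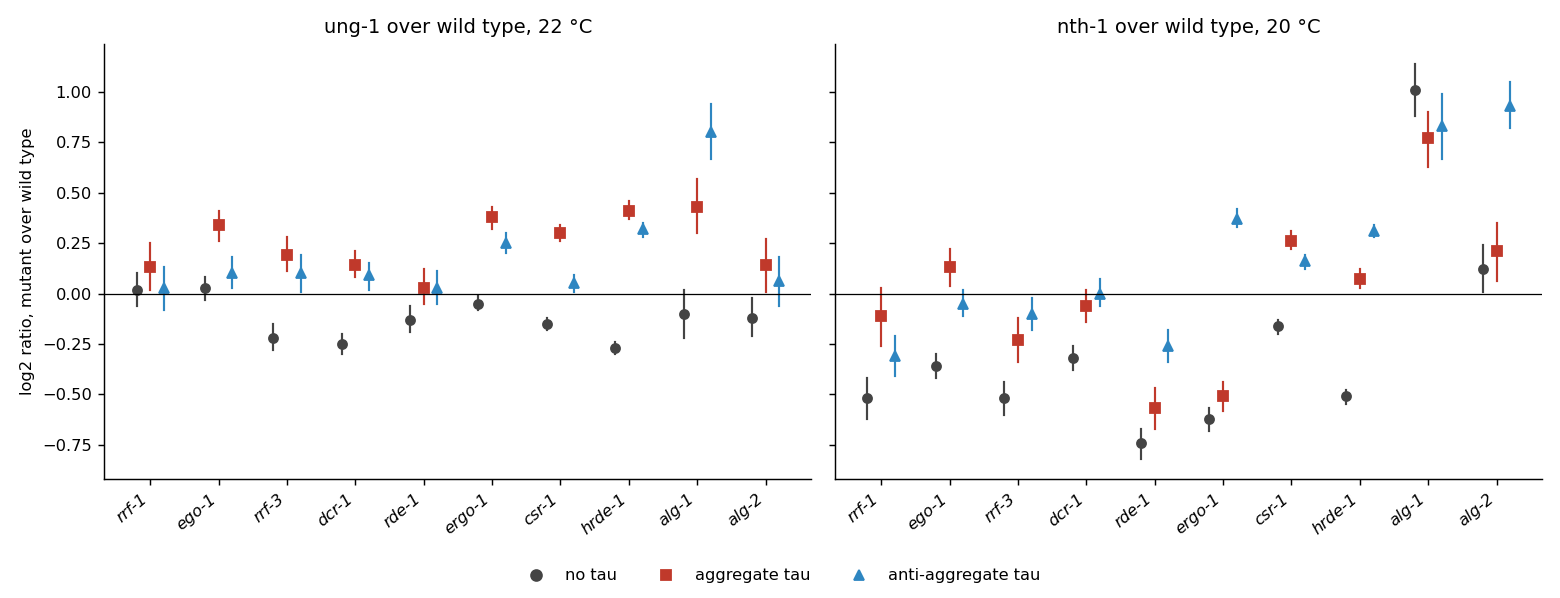
Log2 ratio of mutant over wild type for each gene, ung-1 at 22 °C on the left and nth-1 at 20 °C on the right, 1 point per tau state with bars for the 95% interval of counting error. In nth-1 alg-1 lies between 0.77 and 1.01 and rde-1 between -0.74 and -0.26, while most ung-1 points lie within 0.41 of 0, except alg-1 at 0.43 and 0.80.

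Loss of ung-1 was compared with wild type at 22 °C in the same way. The log2 fold changes ran from -0.02 for rde-1 to 0.39 (SE 0.22) for alg-1, with a median of 0.07 beside 0.03 over all tested genes and 0.06 over those of at least 5 CPM. For alg-1 the ratio was -0.10 without tau, 0.43 with aggregate and 0.80 with anti-aggregate tau, so the pairs differed in sign. Those of hrde-1 were -0.27, 0.41 and 0.32. The edgeR test called 0 of the 10 (adjusted p = 1 for each), 0 had an unadjusted p under 0.05, and 0.0% of tested genes passed. DESeq2 and limma voom called 0. In each of the 3 pairs 2 genes were higher (rrf-1 and ego-1), against 10.1% of genes of at least 5 CPM. With total-count scaling 6 of the 10 values were negative, against 2 with TMM.

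On the wild-type background the libraries of 22 °C were compared with those of 20 °C in 3 pairs. The lowest values were those of csr-1 (-0.32, SE 0.17), ego-1 (-0.30, SE 0.16) and rde-1 (-0.27, SE 0.15), and the highest that of alg-1 (0.18, SE 0.22). The edgeR test called 0 of the 10 (adjusted p between 0.662 and 0.991), 0 had an unadjusted p under 0.05, and 0.0% of tested genes passed. DESeq2 and limma voom called 0. In each pair 4 genes were lower at 22 °C (ego-1, rrf-3, rde-1 and csr-1), against 27.4% of genes of at least 5 CPM. Their ratios were lowest in the anti-aggregate pair, from -0.56 for csr-1 to -0.40 for rde-1. Temperature and the set of libraries cannot be told apart here.

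Over the libraries 8 of the genes correlated positively with one another, and alg-1 correlated negatively with each of them. This is a description, since the libraries share backgrounds and tau states, and no range over other genes stands beside it. Over the 12 libraries the 28 pairs of genes without alg-1 and alg-2 had Pearson r of log2 CPM between 0.36 and 0.96. The highest was that of dcr-1 with hrde-1, 0.96, and the lowest that of csr-1 with ergo-1. With the same 8 genes alg-2 had r between 0.14 (with rde-1) and 0.73 (with hrde-1). By contrast alg-1 had r between -0.80 (with rde-1) and -0.07 (with csr-1) with the 8, and 0.20 with alg-2. Without the library labelled as anti-aggregate tau on nth-1 the 28 pairs had r between 0.14 and 0.95, and alg-1 had r between -0.83 and 0.17 with the rest. The level of alg-1 per kilobase over that of alg-2 was 0.41, 0.415, 0.383 and 0.709 without tau, 0.526, 0.645, 0.59 and 0.87 with aggregate tau, and 0.38, 0.636, 0.338 and 0.314 with anti-aggregate tau. On each background the aggregate library had the highest ratio, on ung-1 with the anti-aggregate library close to it. The library labelled as anti-aggregate tau on nth-1 was lowest of the 12, and the other nth-1 libraries were highest.

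**Figure D4:**
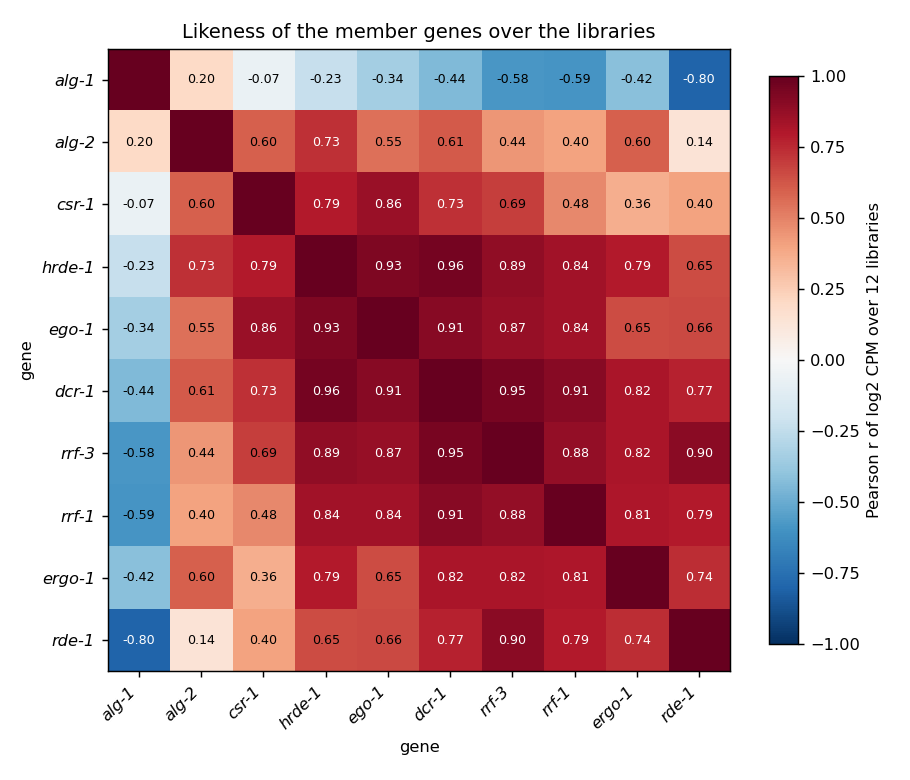
Pearson r of log2 CPM over the 12 libraries for each pair of the 10 genes, on a colour scale from -1 to 1. The 8 genes other than alg-1 and alg-2 form a block of positive r from 0.36 to 0.96, and alg-1 has r from -0.80 to 0.20 with the rest. With those 8 genes alg-2 has r from 0.14 to 0.73.

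Genes outside the set were ranked by likeness, as the 3 highest Pearson r over the 12 libraries among 8892 genes of at least 5 CPM. Of the 30 genes that follow 17 were again among the 3 most alike without the library labelled as anti-aggregate tau on nth-1, all 3 of ego-1 and of hrde-1 and none of rrf-1. For hrde-1 they were thoc-1 (r = 0.99), top-2 (0.989) and npp-4 (0.987). For dcr-1 they were him-1 (0.986), hcp-6 (0.981) and rgr-1 (0.979). For ergo-1 they were cbd-1 (0.988), a component of the eggshell, rme-2 (0.987), the yolk receptor of oocytes, and puf-7 (0.984). Both cbd-1 and rme-2 are among the oocyte markers. For the polymerases they were Y105E8A.21 (0.975), F25B5.5 (0.97) and pat-3 (0.964) for rrf-1, mog-5 (0.983), eftu-2 (0.981) and crn-3 (0.979) for ego-1, and sin-3 (0.987), ekl-4 (0.982) and gly-9 (0.98) for rrf-3. For rde-1 they were T05H4.11 (0.988), cox-11 (0.986) and K04C1.5 (0.985), and for csr-1 abce-1 (0.983), F44E7.4 (0.975) and gars-1 (0.969). For alg-2 they were xpo-1 (0.962), max-2 (0.948) and Y57A10A.31 (0.941). For alg-1 they were nucb-1 (0.947), ain-1 (0.933) and twf-2 (0.923). The gene ain-1 encodes a GW182-type partner of the microRNA Argonautes. Like alg-1 it was higher in nth-1 than in wild type at 20 °C, at 73.3 against 36.7 CPM without tau, 74.8 against 48.6 CPM with aggregate tau and 58.6 against 36.7 CPM with anti-aggregate tau. Its log2 fold change of 0.76 (SE 0.17) did not pass (edgeR quasi-likelihood adjusted p = 0.0692). Without the library labelled as anti-aggregate tau on nth-1 it was 0.86 (SE 0.17) and passed (adjusted p = 0.0128).

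The rest of the small RNA machinery was read from 7 lists with 85 genes in all, of which 75 matched a gene in the files and 74 were tested. In the 9 comparisons 1 gene of the lists passed, the Argonaute ppw-1 (C18E3.7; I, 4185174 to 4189956, plus strand), which is needed for RNA interference in the germline. It read 394 and 419 CPM in the aggregate libraries of the wild types of 22 °C and 20 °C, and 145 to 214 CPM in the other 10. Of the tested genes 9.64% were higher in both those libraries than in all others. On the wild-type backgrounds ppw-1 rose with aggregate tau (log2 fold change 1.23, SE 0.13, edgeR quasi-likelihood adjusted p = 0.0127), where 1.49% of tested genes rose. Within aggregate tau it was lower in the mutants (-1.35, SE 0.13, adjusted p = 0.0112), where 0.977% of tested genes were called lower. Both comparisons share the 2 aggregate libraries of the wild types.

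The interaction of ppw-1 was -1.26 (SE 0.18) and did not pass (edgeR quasi-likelihood adjusted p = 0.117), but it passed without the library labelled as anti-aggregate tau on nth-1 (-1.24, SE 0.14, adjusted p = 0.0206, with 0.949% of tested genes called). Over 19 alternatives the first result passed in 14 (adjusted p from 6.56e-12 to 0.387) and the second in 14 (2.56e-15 to 0.219), with log2 values of 1.16 to 1.44 and -1.59 to -1.28. The first did not pass without the no-tau wild type of 22 °C (0.387) or of 20 °C (0.257), without the aggregate library of 22 °C (0.205) or of 20 °C (0.144), or without ung-1 without tau (0.0577). The second did not pass without either of those aggregate libraries (0.219 and 0.113), without the aggregate library of ung-1 (0.12) or nth-1 (0.14), or without ung-1 without tau (0.0507). The related Argonaute gene sago-2 is similar enough that reads could be split between them. It read 2.56 to 13.3 CPM, with 1.16 (SE 0.53, adjusted p = 0.166) for aggregate tau on wild type.

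**Figure D5:**
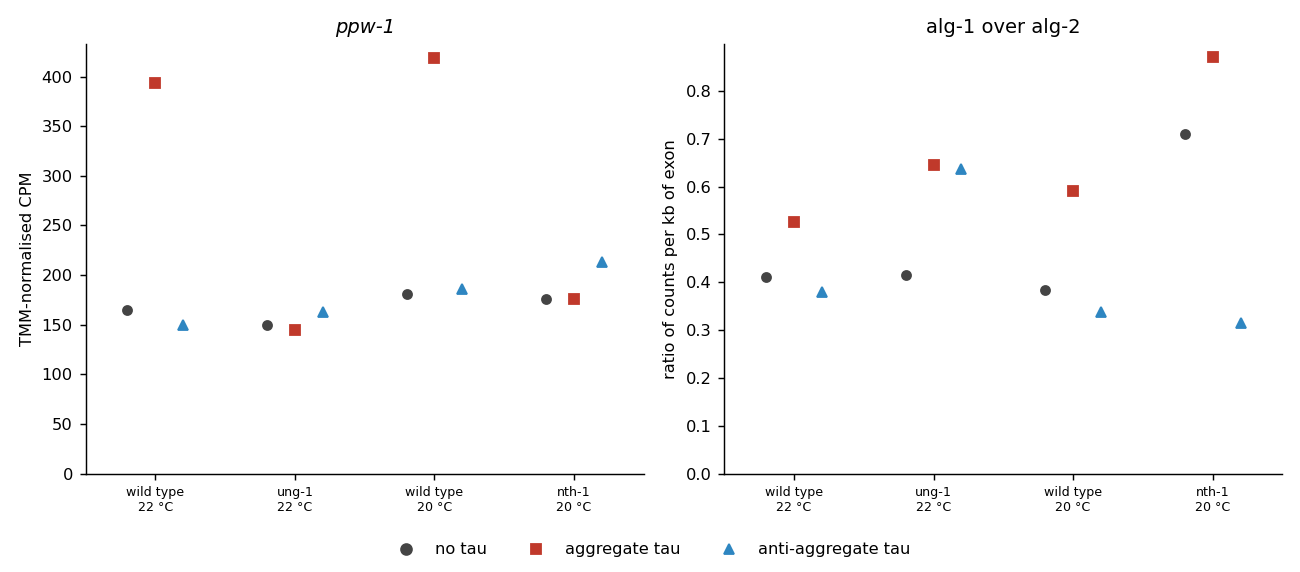
Left, level of ppw-1 in TMM-normalised CPM from 0 in the 12 libraries; right, level of alg-1 over that of alg-2, each per kilobase of exon. Each point is 1 library, by background and tau state, without replicates. The ppw-1 points of aggregate tau on the wild types stand at 394 and 419 CPM above all others, and the alg-1 over alg-2 ratio runs from 0.314 to 0.87.

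With all 12 libraries the other 73 tested list genes did not pass in any of the 9 comparisons. On the wild-type backgrounds with aggregate tau, 61 of the 74 had negative values, with a median of -0.44 beside 0.46 over all tested genes and -0.24 over those of at least 5 CPM. That held for 14 of 15 mutator and RNA interference factors (median -0.57), 10 of 11 genes of nuclear silencing and inheritance (-0.59) and 10 of 10 of germ granules and small RNA ends (-0.57). It held also for 11 of 13 Dicer and Drosha partners (-0.38) and 7 of 8 microRNA effectors (-0.46), but for 7 of 13 other Argonautes (-0.36) and 2 of 4 transport genes (-0.23). Examples, chosen after their values were seen, were the exonuclease gene mut-7 (-0.87, SE 0.19, edgeR quasi-likelihood adjusted p = 0.0857) and the Argonaute wago-4 (-0.83, SE 0.16, adjusted p = 0.0643). Without the library labelled as anti-aggregate tau on nth-1, 39 of the 74 were called lower and 2 higher, where 18% and 17.3% of tested genes were called in those directions, and the median of the 74 was -0.46.

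With nth-1 loss 48 of the 74 were negative, with a median of -0.25 beside 0.17 over all tested genes and -0.10 over those of at least 5 CPM. Positive values were found for 7 of 8 microRNA effectors (median 0.29), 9 of 13 other Argonautes (0.14) and 3 of 4 transport genes (0.34). Negative values were found for 13 of 15 mutator factors (median -0.42), 12 of 13 Dicer and Drosha partners (-0.37), 9 of 11 genes of nuclear silencing (-0.50) and 8 of 10 of germ granules (-0.41). Without the library labelled as anti-aggregate tau on nth-1, 23 of the 74 were called lower and 8 higher, where 16.4% and 18.5% of tested genes were, and the median was -0.44.

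In the comparisons that follow, medians stand beside that of all tested genes and then that of genes of at least 5 CPM. Against no tau over the 4 backgrounds 60 of the 74 were negative with aggregate tau (median -0.29, beside 0.26 and -0.13), and against anti-aggregate tau 62 (median -0.37, beside 0.35 and -0.18). For anti-aggregate tau over no tau 54 were positive (median 0.11, beside -0.00 and 0.06), but 32 were, with a median of -0.02, without the library labelled as anti-aggregate tau on nth-1. For ung-1 loss 52 were positive (0.07, beside 0.03 and 0.06). At 22 °C against 20 °C 55 were negative (median -0.16, beside 0.03 and -0.06), and the interaction was positive for 61 (0.37, beside -0.33 and 0.21). Within aggregate tau 42 were positive in the mutants (0.05, beside 0.00 and 0.06).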

How the data were processed

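Whole-worm RNA libraries were aligned with HISAT2 to build WBcel235, and edgeR 3.22.5 was used, per the submitters' processing notes; for the counting program, its annotation and its use of strand the sources used here give nothing. The deposited values are raw read counts per gene, 1 file per library, with 46589 genes each. Of these identifiers 46180 matched the Ensembl 115 annotation, which gave names, positions and exon lengths. No 2 libraries held identical values.

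Counts were scaled by TMM, filtered with filterByExpr (15245 genes) and compared by the quasi-likelihood test of edgeR 4.0.16 under R 4.3.3, with adjusted p under 0.05 as the threshold. The fit had terms for background and tau state (6 comparisons), or also for glycosylase loss by tau state (3 comparisons). Levels are TMM-normalised CPM, computed from the deposited counts. Log2 ratios of single pairs carry a 95% interval of counting error only. The script was tested on simulated data. Genes named beside the 10 and the mutated genes are list genes past the threshold and the 3 most alike of each. Beyond these, pei-2 and frpr-10 were named for overlap, sago-2 as a relative of ppw-1, and mut-7 and wago-4 as examples. The 10 genes and the lists were chosen with earlier results of these data known. List names that did not match 1 gene were left out. Alternatives were size factors (RLE), total counts, no filter, a mean of at least 5 CPM, DESeq2 1.42.0, limma 3.58.1 voom, subsets of backgrounds and each library left out. No sequences are shown.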

Additional observations from a re-analysis of the deposited data

Results flagged for a closer look

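For the polymerase gene rrf-1 the effect of losing a glycosylase had opposite signs in the 2 mutants. Every nth-1 pair was lower than wild type at 20 °C (log2 ratios with 95% counting intervals -0.52, -0.62 to -0.42, without tau; -0.11, -0.26 to 0.03, with aggregate tau; -0.31, -0.41 to -0.21, with anti-aggregate tau). The fitted value was -0.32 (SE 0.16). Every ung-1 pair was higher than wild type at 22 °C, at 0.02 (-0.06 to 0.10), 0.13 (0.02 to 0.25) and 0.03 (-0.08 to 0.13) in the same order, with a fitted value of 0.06 (SE 0.16). The intervals of 2 of the 3 ung-1 pairs and of the nth-1 pair with aggregate tau include 0. The ung-1 value changed sign in 3 of 19 alternatives. It turned to -0.04 with total-count scaling, and its lowest value with a single library left out was -0.02. The difference between the mutants was not tested, and temperature and set of libraries changed with the mutated gene.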

How the results depend on the processing

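Pairing by replicate was not possible, because each combination of background and tau state has 1 library and the labels carry no replicate numbers. Pairs here are matched by background or tau state, which are terms of the fits. Of 1760 single-gene estimates under the alternatives, 153 turned sign, none of these past the threshold, and 42 passed. In 49 of 90 combinations of gene and comparison no sign turned. For aggregate tau on wild type, where edgeR called 0 of the 10 genes, DESeq2 called 5, limma voom 1 and the fit without the nth-1 background 3, and leaving out 1 library gave 0 to 8. For nth-1 loss DESeq2 called 2, limma voom 1, total-count scaling 1 (9.26% of tested genes) and the filter at a mean of 5 CPM 3 (21.4%), and leaving out 1 library gave 0 to 3. For aggregate against anti-aggregate tau DESeq2 called 3 (7.56% of tested genes) and the 20 °C set alone 3 (31.4%). The cause was not tested. In all other comparisons and alternatives run the count was 0. The share of all tested genes called moved as well: for aggregate tau on wild type from 1.51% to 21.7% with DESeq2, 5.1% with voom and 23.4% without the nth-1 background, and for nth-1 loss from 0.0% to 27.6% and 9.09%. The correlations and list counts without the library labelled as anti-aggregate tau on nth-1 were added after seeing the data. Each of the 10 genes had at least 448 counts in every library.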
